A study of Mus musculus with 8 samples.

Results

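The chemokines described here are the 7 genes Ccl1, Ccl3, Ccl4, Ccl5, Ccl9, Xcl1 and Cxcl16, which CD8 T cells can make. They were taken by symbol from the deposited table of normalized counts. All 7 were found among its 24303 genes, and averaged over the 8 libraries 5 of them reached 50 normalized counts.

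Chemokines are small secreted proteins that attract leukocytes along a gradient by binding G protein-coupled receptors. CD8 T cells make them within hours of T cell receptor signals, and effector and memory cells also keep stores of Ccl5. Ccl3, Ccl4 and Ccl5 attract T cells, macrophages and dendritic cells, Xcl1 binds Xcr1 on dendritic cells that cross-present antigen, and Cxcl16 binds Cxcr6, which marks many tissue T cells.

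The study cultured P14 CD8 T cells, whose T cell receptor transgene recognizes GP33, a peptide of LCMV. They came from C57BL/6 spleen. All cells were naive at the start and were activated on plates coated with anti-CD3 and anti-CD28 until day 2. Acute-2d cells then received no GP33 peptide and were collected on day 19. Acute-7d cells received GP33 peptide repeatedly until day 7, then peptide-free medium, and were collected on day 19. T_Dysf cells, labelled dysfunctional, received GP33 peptide repeatedly until day 19 with TGF-β1 from day 7. Effector cells were collected on day 7, at the effector stage, and their label gives no further treatment. In its cytometry the paper names day 7 cells Effector 7d-stim, and it does not state whether the sequenced cells had the same peptide. All cells were kept in medium with IL-2 and IL-15 after activation and were sorted before RNA was isolated. Peptide late in culture and TGF-β1 were given to the same cells, so their parts in any T_Dysf value cannot be told apart. All cells share this receptor specificity and were made in culture, which limits them as a model.

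Each condition had 2 libraries, 8 in all, called biological replicates in the labels, and whether they came from separate mice was not given. Libraries held 19382147 to 24856195 reads on genes, so 3 reads corresponded to 2.59 to 3.35 normalized counts, a floor that covers counting error only. Both Effector libraries and Acute-7d replicate 1 carry the prefix RESUB in their library names, and what it stands for was not given. Differences were tested with limma across all genes, on log2(normalized count + 1). A gene was called where the fold change was at least 2 and the Benjamini-Hochberg adjusted p was under 0.05. Fold changes below are on that scale, with the standard error (SE) of the log2 fold change.

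Markers of the labelled cell type were high in every library. The summed level of the 9 T cell genes, among them Cd3e, Cd8a and Thy1, was 215021 to 215658 normalized counts in T_Dysf and 104009 to 120062 in the other conditions. Of these 9, 3 were called higher and 1 lower in T_Dysf than in Acute-7d, where 5.57% of all genes were called. The lower gene was Cd2, at 3439 and 3478 in T_Dysf and 6566 to 8821 elsewhere. Cd2 was 2.49-fold below Acute-7d and 2.31-fold below Acute-2d (adjusted p = 0.00124 and 0.00127 by limma). Cd4 was at 13.0 normalized counts or less in every library. The 7 detected of 8 listed myeloid genes summed to 343 to 373 in T_Dysf and 274 to 663 elsewhere, so the sum was no higher in T_Dysf. Within this list Csf1r was called 2.70-fold higher in T_Dysf than in Effector (adjusted p = 0.0406 by limma). Csf1r was at 21.0 and 18.0 in T_Dysf, 6.49 and 6.64 in Effector, and 20.9 and 18.1 in Acute-2d. The 4 detected of 5 dendritic cell genes summed to 3312 to 3410 in T_Dysf and 348 to 1135 elsewhere. Itgax, which activated T cells also express, made up 3306 and 3212 of the T_Dysf sums. Itgax was called 9.56-fold higher in T_Dysf than in Acute-2d and 7.38-fold higher than in Effector (adjusted p = 0.0169 and 0.02 by limma). Batf3, a factor of cross-presenting dendritic cells that activated T cells also make, was at 71.6 and 78.3 in T_Dysf, 197 and 624 in Effector, 30.5 and 29.1 in Acute-2d, and 3.35 and 3.03 in Acute-7d. Batf3 was called 18.1-fold higher in T_Dysf than in Acute-7d (adjusted p = 0.02 by limma), and was highest in Effector. Clec9a, a defining gene of cross-presenting dendritic cells, was at 2.44 or less in every library. The 5 NK cell genes summed to 6582 to 6628 in T_Dysf, with 5542 to 6123 in Acute-7d and 2041 to 4986 elsewhere, and the defining gene Ncr1 was at 2.59 and 1.78 in T_Dysf. Most of the T_Dysf sum was Klrc1, an inhibitory receptor subunit that activated CD8 T cells also express, at 5552 and 4829 in T_Dysf and 496 to 2532 in the other libraries. Klrc1 was called 9.10-fold higher in T_Dysf than in Acute-2d (adjusted p = 0.0254 by limma). Ncr1 ran the other way and was called lower in T_Dysf than in Acute-7d, where it was at 30.1 and 105 (adjusted p = 0.0343 by limma). Klrb1c and Eomes were 3.24- and 2.70-fold lower in T_Dysf than in Acute-7d, with no overlap of libraries and neither called. B cell genes summed to 153 to 168 in T_Dysf, 136 to 178 in Effector, 109 to 116 in Acute-2d and 55.8 to 68.7 in Acute-7d, and Cd79b was called 3.59-fold higher in T_Dysf than in Acute-7d (adjusted p = 0.0307 by limma). The part of Csf1r-, Itgax-, Batf3-, Klrc1- or Cd79b-expressing cells of another type in the chemokine values was not tested. Erythroid genes summed to 24.3 to 52.1 and CD4 T cell genes to 1058 to 1639 over all libraries. Nearly all of the CD4 sum was Zbtb7b, at 1041 to 1625, with Foxp3 at 2.15 to 49.5 and Cd40lg at 13.0 or less.

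**Figure D1:**
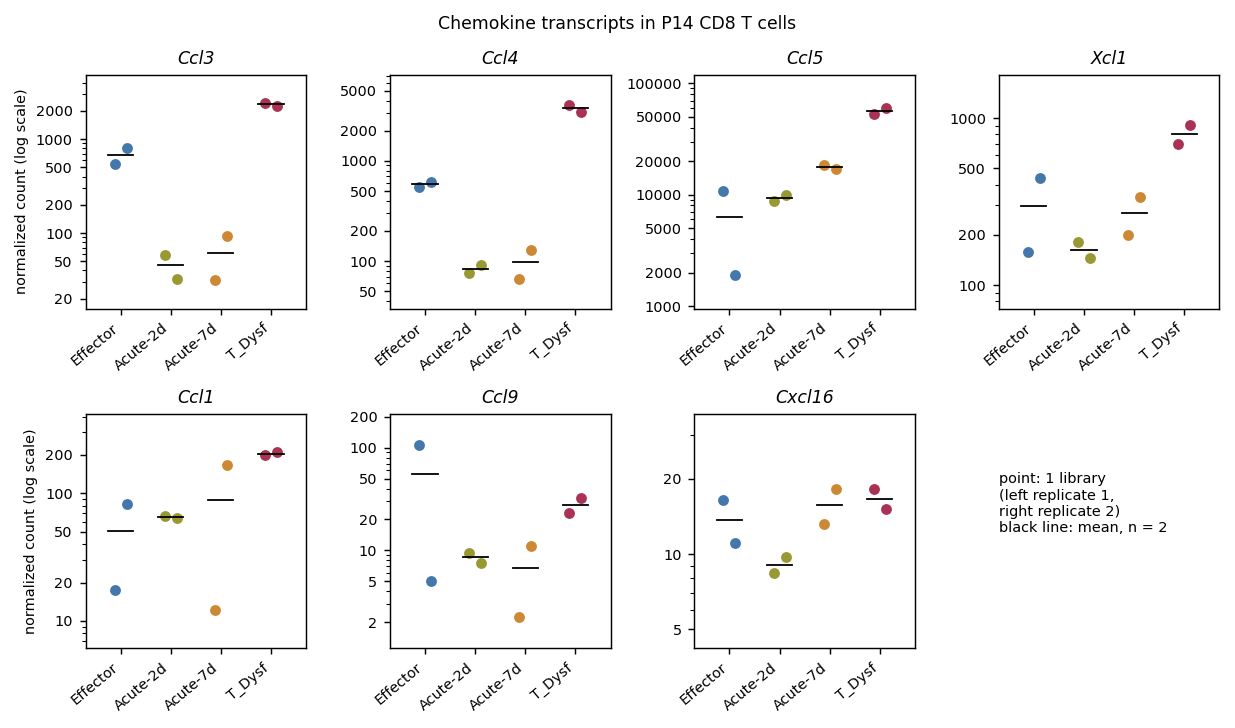
Normalized counts of the 7 chemokine transcripts (log scale) by condition, with 1 point per library and a black line for the mean of 2. Both T_Dysf libraries lie above the 6 other libraries for Ccl3, Ccl4, Ccl5, Xcl1 and Ccl1, and the Effector libraries lie between the T_Dysf and Acute libraries for Ccl3 and Ccl4.

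For 5 of the 7 chemokines, Ccl1, Ccl3, Ccl4, Ccl5 and Xcl1, both T_Dysf libraries lay above all 6 other libraries. Of all genes in the table, 11.6% did so, and 17.3% of the 12028 genes that averaged 50 normalized counts or more. Ccl3 and Ccl4 showed the widest range, with 31.2 to 128 normalized counts over the Acute libraries and 2266 to 3633 over the T_Dysf libraries. Ccl5 had the highest level per kb of transcript in each condition.

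Promoter sequences were available from RefSeq (GRCm38.p6) for 4 of the 7 genes, Ccl1, Ccl3, Ccl9 and Xcl1. The 250 bases before the transcript start are shown for the 3 of them whose T_Dysf libraries lay above all others, because these are the members that stood highest in the same condition. All lie on the minus strand and are printed 5′ to 3′ along the gene. Capitals mark an NFAT core (GGAAA) or a kappa B site (GGGNNNNNCC) read on either strand, and the AP-1 site (TGANTCA), also searched, has no match in them.
Ccl3, chr11:83649379-83649628: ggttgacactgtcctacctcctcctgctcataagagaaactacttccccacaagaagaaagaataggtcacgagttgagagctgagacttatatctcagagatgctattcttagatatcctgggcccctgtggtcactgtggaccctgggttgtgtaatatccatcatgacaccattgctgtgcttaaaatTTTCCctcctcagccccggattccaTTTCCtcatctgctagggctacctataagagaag
Ccl1, chr11:82179813-82180062: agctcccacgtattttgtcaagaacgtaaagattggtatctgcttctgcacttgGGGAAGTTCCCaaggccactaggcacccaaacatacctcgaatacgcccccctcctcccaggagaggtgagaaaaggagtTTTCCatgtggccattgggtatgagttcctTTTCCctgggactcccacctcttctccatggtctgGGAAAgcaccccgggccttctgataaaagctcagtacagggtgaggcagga
Xcl1, chr1:164935523-164935772: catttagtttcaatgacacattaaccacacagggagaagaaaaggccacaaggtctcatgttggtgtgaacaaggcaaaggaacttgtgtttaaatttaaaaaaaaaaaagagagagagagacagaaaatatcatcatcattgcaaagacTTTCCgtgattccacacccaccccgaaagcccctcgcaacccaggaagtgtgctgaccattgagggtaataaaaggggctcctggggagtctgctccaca
The NFAT core is the short element that nuclear factor of activated T cells binds after calcium signals. It occurred 2 times before Ccl3, at -59 to -55 and -34 to -30, 3 times before Ccl1 and 1 time before Xcl1, counted from the start at +1. The Ccl1 window also held 2 overlapping kappa B matches, between -196 and -186. The core was present in 55.6% of 32851 promoters of this length, the kappa B site in 45.8% and the AP-1 site in 6.75%. The Ccl9 window held 2 NFAT cores, 1 kappa B match that overlaps a core, and the AP-1 match at -53 to -47.

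Ccl3 and Ccl4 are inflammatory chemokines released by activated T cells. Ccl3 binds Ccr1. Ccl3 was at 2442 and 2266 normalized counts in T_Dysf, 545 and 805 in Effector, 31.2 and 91.9 in Acute-7d, and 59.0 and 32.4 in Acute-2d. The 4 Acute libraries overlapped each other and lay below both Effector libraries, which lay below both T_Dysf libraries. Ccl4 was at 3633 and 3091 in T_Dysf, 551 and 616 in Effector, 66.9 and 128 in Acute-7d, and 75.8 and 91.8 in Acute-2d. The order of conditions was as for Ccl3.

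Ccl3 was 43.0-fold higher in T_Dysf than in Acute-7d (log2 fold change 5.43, SE 0.59, adjusted p = 0.0122 by limma). Ccl4 was 35.8-fold higher (5.16, SE 0.33, adjusted p = 0.00392). These were the 2 of 7 members called in this comparison, in which 5.57% of all genes were called. Against Acute-2d, Ccl3 was 52.6-fold higher (5.72, SE 0.59, adjusted p = 0.00845) and Ccl4 39.7-fold (5.31, SE 0.33, adjusted p = 0.00279), again the 2 members called, with 7.35% of all genes called. The call of Ccl4 held in both comparisons under all 19 alternatives, with adjusted p from 8.93e-05 to 0.0382. That of Ccl3 was lost without T_Dysf replicate 1 (adjusted p = 0.0799 against Acute-7d and 0.0597 against Acute-2d) and, against Acute-7d, in the fit of the 4 libraries alone (adjusted p = 0.059). Without Acute-7d replicate 1 or 2 Ccl3 stayed called against Acute-7d, with log2 values of 4.66 and 6.19. With a term for the RESUB libraries the log2 fold changes against Acute-7d were 4.66 for Ccl3 (adjusted p = 0.0337) and 4.70 for Ccl4 (0.00283). In this comparison the term repeats leaving out Acute-7d replicate 1, so it is no separate check.

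Effector cells also held more Ccl3 and Ccl4 than rested cells. Ccl3 was 14.8-fold higher in Effector than in Acute-2d (log2 fold change 3.89, SE 0.59, adjusted p = 0.0211 by limma) and 12.1-fold higher than in Acute-7d (3.60, SE 0.59, adjusted p = 0.026). Ccl4 was 6.91-fold (2.79, SE 0.33, adjusted p = 0.0133) and 6.23-fold higher (2.64, SE 0.33, adjusted p = 0.0169). These were the 2 members called in each of the 2 comparisons, with 8.78% and 8.06% of all genes called. Leaving out single libraries ended the calls against Acute-2d of Ccl3 (Effector replicate 2, either Acute-2d library or either T_Dysf library, adjusted p from 0.057 to 0.0842) and of Ccl4 (Effector replicate 2 or Acute-2d replicate 1, adjusted p = 0.0528 and 0.0688). Against Acute-7d it ended those of Ccl3 (either Effector library, Acute-7d replicate 1 or either T_Dysf library, adjusted p from 0.0543 to 0.0998) and of Ccl4 (Effector replicate 2 or T_Dysf replicate 2, adjusted p = 0.0627 and just above 0.05). With the RESUB term Ccl4 was still called (log2 fold change 3.72 and 3.10, adjusted p = 0.0185 and 0.0147), and Ccl3 was called against Acute-7d (4.36, 0.036) and not against Acute-2d (5.42, 0.0637). The log2 value of Ccl3 against Acute-7d was 2.84 without Acute-7d replicate 1 and 4.36 without Acute-7d replicate 2. The RESUB value against Acute-7d repeats the fit without Acute-7d replicate 2 and is no separate check.

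T_Dysf stood above Effector for both genes, and the test called only Ccl4. Ccl4 was 5.74-fold higher in T_Dysf (log2 fold change 2.52, SE 0.33, adjusted p = 0.0132 by limma), and 2 of the 7 members, Ccl4 and Ccl5, were called among 9.22% of all genes. For Ccl3 the fitted fold was 3.55 (1.83, SE 0.59) with an adjusted p of 0.109. With the RESUB term the log2 fold change of Ccl4 was 1.59 (adjusted p = 0.0952) and that of Ccl3 was 0.30 (adjusted p = 0.877). Both Effector libraries carry that prefix and no T_Dysf library does, so the term rests on Acute-7d alone, where replicate 1 (RESUB) was lower than replicate 2 for 6 of the 7 members. The Ccl4 call was also lost without Effector replicate 2 (adjusted p = 0.0525) or T_Dysf replicate 1 (0.0799).

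The ratio of Ccl4 to Ccl3 normalized counts within a library, not corrected for length, was 1.49 and 1.36 in T_Dysf and 1.01 and 0.766 in Effector. It was 1.29 and 2.83 in Acute-2d and 2.14 and 1.40 in Acute-7d, at far lower counts. The ratio was above 1 in both T_Dysf libraries, and the Effector libraries were split. In GENCODE vM21 (GRCm38) Ccl3 lies on chromosome 11 at 83647844 to 83649355 on the minus strand and Ccl4 at 83662584 to 83664683 on the plus strand. In the RefSeq table the span of Ccl4 starts further upstream and overlaps that of Ccl3 by 755 bp. Whether the counting used strand was not given, so reads in this overlap cannot be told apart between the genes.

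Ccl5 (RANTES) is the chemokine that effector and memory CD8 T cells express at high level and hold in a secretory store, and it binds Ccr1 and Ccr3 among its receptors. Ccl5 was at 53499.7 and 60019.9 normalized counts in the T_Dysf libraries, against 18529 and 16857 in Acute-7d, 8829.6 and 9923 in Acute-2d, and 10689 and 1891 in Effector. The T_Dysf libraries were highest, the Acute-7d libraries next, and the Effector libraries lay on either side of both Acute-2d libraries, 5.65 times apart. Ccl5 ranked 15 and 17 of all genes by normalized count in T_Dysf, 131 and 139 in Acute-7d, and 2851 in Effector replicate 2.

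Ccl5 was 12.6-fold higher in T_Dysf than in Effector (log2 fold change 3.66, SE 0.81, adjusted p = 0.0452 by limma). This call was close to the threshold and was lost without any 1 of the 6 Acute and T_Dysf libraries (adjusted p from 0.0901 to 0.165) and with the RESUB term (0.315). The size of the difference turned on the Effector library kept, with a log2 fold change of 4.90 without Effector replicate 1 and 2.41 without Effector replicate 2 (adjusted p = 0.00124 and 0.00924), both called. The fitted fold was 3.21 against Acute-7d (1.68, SE 0.81, adjusted p = 0.273) and 6.05 against Acute-2d (2.60, SE 0.81, adjusted p = 0.116), with no overlap of libraries. The fit shares 1 spread over all 8 libraries, and the 2 Effector libraries moved these calls. Without Effector replicate 1 the adjusted p of Ccl5 was 0.01 against Acute-7d and 0.00396 against Acute-2d, and without Effector replicate 2 it was 0.0107 and 0.00429.

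Between the 2 rested conditions Ccl5 gave the widest difference of the 7 in log2 terms, 1.89-fold higher in Acute-7d than in Acute-2d with no overlap of libraries (0.92, SE 0.81, adjusted p = 0.901 by limma). Effector was 3.93-fold below Acute-7d in the fit (-1.97, SE 0.81, adjusted p = 0.184), also with no overlap. Without Effector replicate 1 the log2 fold change was -3.22, with an adjusted p of 0.00402, and without Effector replicate 2 it was -0.73, with an adjusted p of 0.0746. The size of this difference therefore rests on 1 library.

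**Figure D2:**
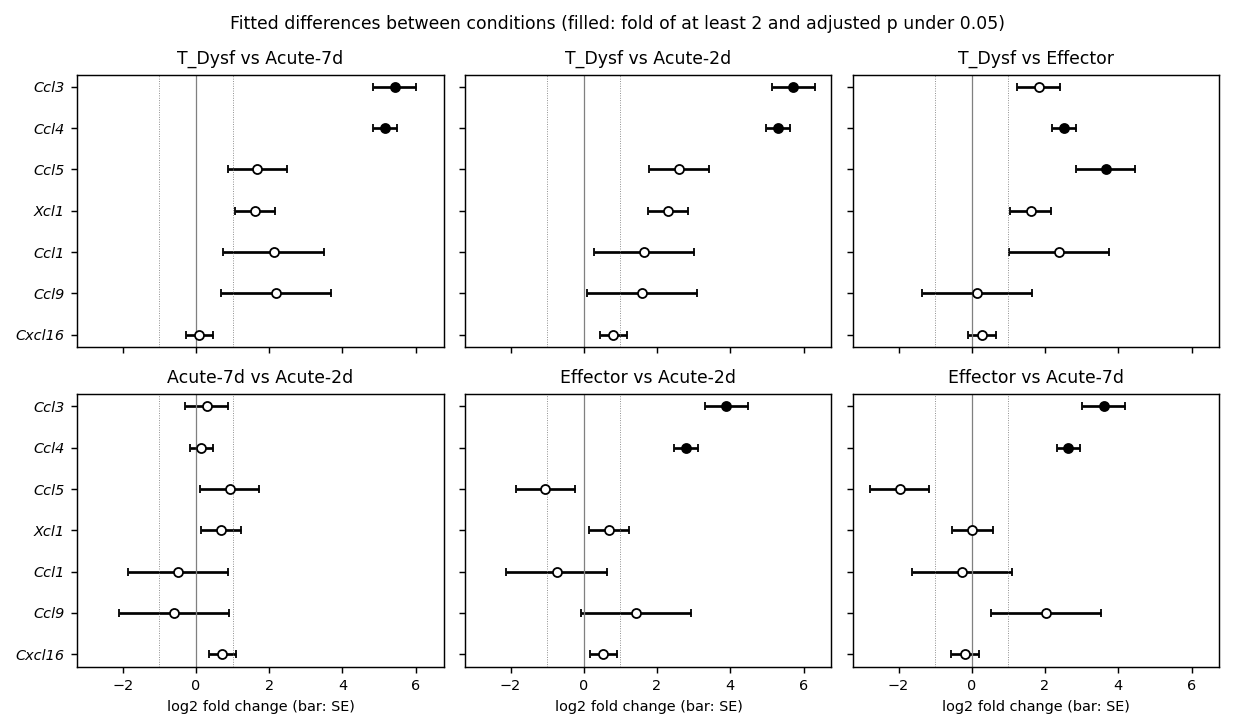
Fitted log2 fold changes of the 7 chemokines in the 6 comparisons (x axis), with bars for the SE and filled points for called genes. Ccl3 and Ccl4 are filled in both comparisons of T_Dysf with an Acute condition and both of Effector with an Acute condition, Ccl4 and Ccl5 in T_Dysf against Effector, and none in Acute-7d against Acute-2d.

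Xcl1 (lymphotactin) lacks the second disulfide bridge of other chemokines and attracts Xcr1-expressing dendritic cells. Xcl1 was at 703 and 911 normalized counts in T_Dysf, 158 and 435 in Effector, 200 and 338 in Acute-7d, and 182 and 145 in Acute-2d. Both T_Dysf libraries lay above the other 6, and the Effector and Acute-7d libraries overlapped. The fitted fold of T_Dysf was 4.91 against Acute-2d (log2 fold change 2.29, SE 0.55, adjusted p = 0.0649 by limma), 3.07 against Acute-7d (1.62, SE 0.55, adjusted p = 0.151) and 3.04 against Effector (1.60, SE 0.55, adjusted p = 0.123). None was called over all genes. With the test limited to genes that average at least 50, all 3 were called, with adjusted p of 0.0111, 0.0439 and 0.033. The value against Effector was 0.88 on the log2 scale without Effector replicate 1 and 2.33 without Effector replicate 2. With the RESUB term the log2 fold change was 1.24 against Acute-7d and 0.85 against Effector. Xcl1 is the only member on chromosome 1, at 164931644 to 164935527 on the minus strand.

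Ccl1 is a ligand of Ccr8, a receptor of activated and regulatory T cells. Ccl1 was at 199 and 210 normalized counts in the T_Dysf libraries, against 12.3 and 167 in Acute-7d, 66.3 and 63.7 in Acute-2d, and 17.4 and 83.3 in Effector. T_Dysf was highest, and the replicates of Acute-7d and of Effector differed 13.6 and 4.80 times. The fitted folds of T_Dysf were 4.36 against Acute-7d, 3.11 against Acute-2d and 5.23 against Effector, with an SE of 1.37 on the log2 scale and adjusted p from 0.314 to 0.507 by limma. Against Acute-7d the log2 value was 2.12 with both Acute-7d libraries, 0.29 without Acute-7d replicate 1 and 3.95 without Acute-7d replicate 2. The lower Acute-7d library, replicate 1, carries the RESUB prefix, as do both Effector libraries. The RESUB term gave the same 0.29 against Acute-7d, because there it repeats leaving out Acute-7d replicate 1. With the RESUB term the Effector difference turned to -1.27 on the log2 scale (adjusted p = 0.721).

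Ccl9 and Cxcl16 were the least abundant. Ccl9 is a Ccr1 ligand best known from myeloid cells. Ccl9 was at 23.3 and 32.0 normalized counts in T_Dysf, 107 and 5.02 in Effector, 2.23 and 11.1 in Acute-7d, and 9.48 and 7.56 in Acute-2d. T_Dysf lay above both Acute conditions, and Effector replicate 1 lay above every other library. The fitted folds of T_Dysf were 4.53 against Acute-7d and 2.99 against Acute-2d (SE 1.50 on the log2 scale, adjusted p = 0.426 and 0.561 by limma), and the Effector libraries lay on both sides of T_Dysf. In Effector replicate 1 Itgam, a myeloid gene that effector T cells also express, was at 225 normalized counts and in replicate 2 at 39.3. The myeloid list summed to 601 and 274 in these libraries. The part of this in the Ccl9 value was not tested.

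Cxcl16 is made as a transmembrane protein that Adam10 sheds, and dendritic cells and macrophages are its usual source. Cxcl16 was at 18.1 and 15.1 normalized counts in T_Dysf, 16.4 and 11.0 in Effector, 13.2 and 18.2 in Acute-7d, and 8.43 and 9.72 in Acute-2d. All libraries were within a narrow range, and both Acute-2d libraries were lowest. The fitted fold of T_Dysf against Acute-2d was 1.75 (log2 fold change 0.81, SE 0.37, adjusted p = 0.247 by limma), and T_Dysf overlapped Acute-7d and Effector. Cxcl16 was called in none of these comparisons.

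In Acute-7d against Acute-2d limma called 0 of the 7 members and 0.169% of all genes, and 0 members had an unadjusted p under 0.05 with a fold of at least 2. The libraries overlapped for Ccl1, Ccl3, Ccl4 and Ccl9. Xcl1 was 1.60-fold (log2 fold change 0.68, SE 0.55, adjusted p = 0.89 by limma) and Cxcl16 1.64-fold higher (0.71, SE 0.37, adjusted p = 0.821) in Acute-7d, with no overlap.

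The fitted median log2 fold change of the 7 members was 2.12 in T_Dysf against Acute-7d, 2.29 against Acute-2d and 1.83 against Effector, where the median over all genes was 0. All 7 fitted values were above 0 in these 3 comparisons, which share the T_Dysf libraries. Those of Cxcl16 against Acute-7d and Effector and of Ccl9 against Effector, where the libraries overlapped, changed sign under some other settings. No direction is read from them. The value of Ccl1 against Effector turned to -1.27 with the RESUB term. For Ccl9 against Effector the arithmetic means ran the other way, 27.7 in T_Dysf and 56.0 in Effector.

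Summed over the 7 genes, the members took 0.282% and 0.307% of all normalized counts in T_Dysf, against 0.0872% and 0.0834% in Acute-7d, 0.043% and 0.0471% in Acute-2d, and 0.0583% and 0.0174% in Effector. Most of this was Ccl5, which made up 88.4% and 90.2% of the sum in T_Dysf and 95.7% to 98.3% in the Acute libraries. In Effector it was 88.5% in replicate 1 and 49.2% in replicate 2. Without Ccl5 the other 6 genes took 0.0327% and 0.0301% in T_Dysf, 0.00673% and 0.00885% in Effector and 0.00151% to 0.00357% in the Acute libraries, so Effector then lay above every Acute library. In bulk RNA fewer expressing cells and less RNA per cell cannot be told apart.

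**Figure D3:**
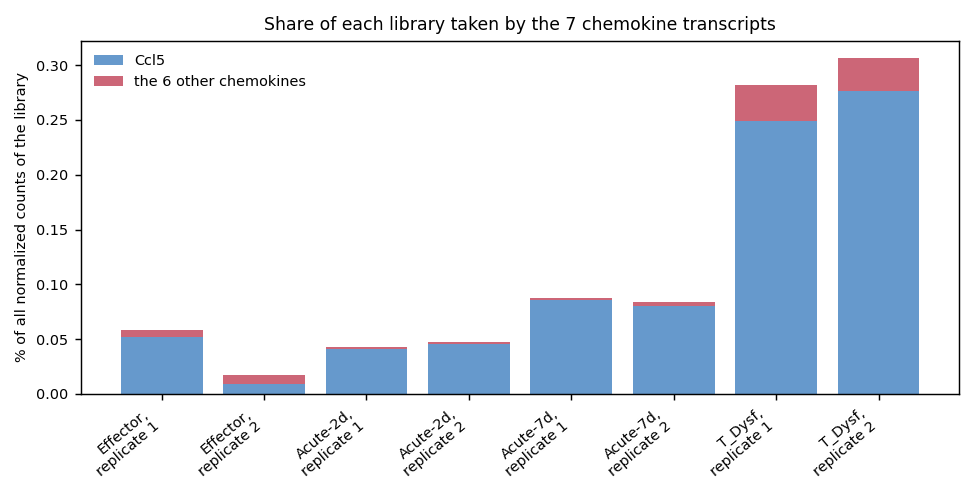
Share of all normalized counts in each library (percent) taken by Ccl5 and by the 6 other chemokines, as stacked bars. The T_Dysf bars reach 0.282% and 0.307%, against 0.0872% or less in the other 6 libraries, and the part without Ccl5 is widest in T_Dysf.

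Per kb of transcript (normalized counts divided by the length of the RefSeq transcript), the order in T_Dysf was Ccl5 at 106691, Ccl4 at 5094, Ccl3 at 3073, Xcl1 at 1543, Ccl1 at 398, Ccl9 at 9.20 and Cxcl16 at 6.16. Effector had the same order, from 11823 for Ccl5, with Ccl4 at 884 and Ccl3 at 881 not apart beyond their spread, and Cxcl16 last at 5.09. In both Acute conditions Ccl5 was first and Xcl1 next, at 312 per kb in Acute-2d and 514 per kb in Acute-7d. The places of Ccl1, Ccl3 and Ccl4 below them depended on the gene model, since Ccl1 is 514 bp long in RefSeq and 2369 bp as summed GENCODE exons. Xcl1 thus came directly after Ccl5 in the rested conditions and behind Ccl4 and Ccl3 in T_Dysf and Effector.

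Receptors of these chemokines were measured in the same cells. Cxcr6, the receptor of Cxcl16, was at 13971 and 15736 normalized counts in T_Dysf, 9282 and 3716 in Effector, 7543 and 8591 in Acute-7d, and 4430 and 6391 in Acute-2d. T_Dysf lay above all other libraries, with fitted folds of 1.84 to 2.79 and adjusted p from 0.12 to 0.314 by limma, none called. With the test limited to genes that average at least 50, Cxcr6 was called against Acute-2d and against Effector (adjusted p = 0.028 and 0.0318). Without Effector replicate 1 it was called in these same comparisons (0.0308 and 0.0227), and without Effector replicate 2 against Acute-2d (0.0309). Ccr1, a receptor of Ccl3, Ccl5 and Ccl9, ran the other way. Ccr1 was at 13.8 and 7.12 in T_Dysf, 25.7 and 78.8 in Acute-7d, 182 and 254 in Acute-2d, and 186 and 34.1 in Effector. T_Dysf was lowest, 19.7-fold below Acute-2d in the fit (log2 fold change -4.30, SE 0.99, adjusted p = 0.0583 by limma), which was not called over all genes and was called with the test limited to genes that average at least 50 (0.0102).

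Xcr1, the Xcl1 receptor that defines cross-presenting dendritic cells, was at 391 and 300 normalized counts in the T_Dysf libraries, against 354 and 330 in Acute-7d, 265 and 309 in Acute-2d, and 546 and 101 in Effector. T_Dysf overlapped every other condition. Clec9a, of the same dendritic cells, was at 2.44 or less in each library. Ccr3, Ccr8 and the scavenging receptor Ackr2 were near the floor, at no more than 7.31, 4.57 and 8.22 normalized counts in any library. Ccr3 was at 0 in both T_Dysf and both Acute-2d libraries and at 7.31 and 2.01 in Effector, and limma called it between Effector and each of them (adjusted p = 0.0412 and 0.0416). With the Effector libraries on either side of the floor of 3 reads, no fold is given.

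**Figure D4:**
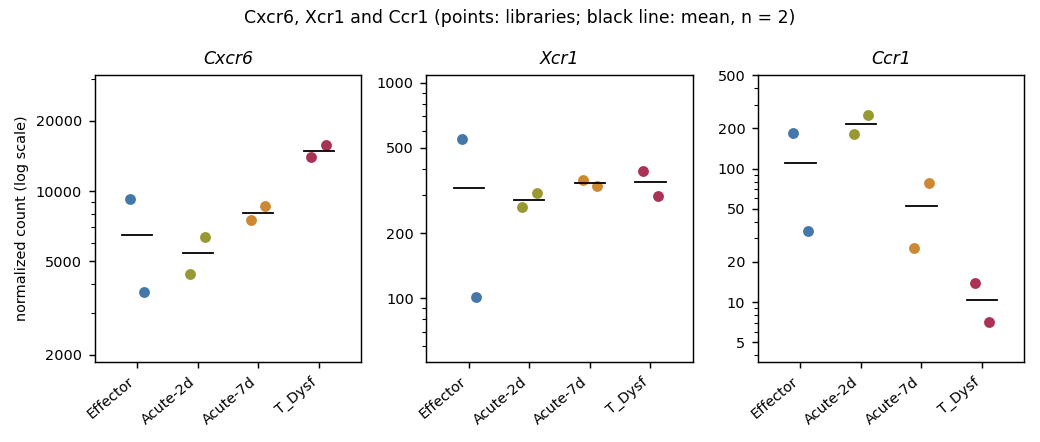
Normalized counts (log scale) of Cxcr6, Xcr1 and Ccr1, by condition, with 1 point per library and a black line for the mean of 2. For Cxcr6 the T_Dysf libraries are highest, for Ccr1 they are lowest, and for Xcr1 they lie among the others.

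Among 8 genes that act on chemokine production, storage or cleavage, 1 was called higher and 0 lower in T_Dysf against Acute-7d, 0 against Acute-2d, and 1 higher and 0 lower against Effector. Of all genes 5.57%, 7.35% and 9.22% were called in these comparisons, so the counts of the list are not read as a result. The called gene was Srgn each time, which encodes serglycin, the proteoglycan that holds chemokines and granzymes in secretory granules. Srgn was at 13818 and 14994 normalized counts in the T_Dysf libraries, against 6697 and 7315 in Acute-7d, 8609 and 8419 in Acute-2d, and 5844.9 and 5299.7 in Effector. T_Dysf lay above the other 6 libraries, 2.06-fold above Acute-7d (log2 fold change 1.04, SE 0.09, adjusted p = 0.00643 by limma) and 2.59-fold above Effector (1.37, SE 0.09, adjusted p = 0.00311). The difference from Acute-7d sat at the fold threshold. This difference fell under it without Acute-7d replicate 1 (0.98), which the RESUB term repeats here, without T_Dysf replicate 2 (0.98) and with equal 75th percentiles (0.94). The RESUB term also ended the call against Effector (adjusted p = 0.0615).

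Zfp36l1, a protein that binds AU-rich elements of cytokine transcripts and promotes their decay, was called lower in Effector than in each Acute condition. It was the 1 gene of this list called there, where 8.78% (Acute-2d) and 8.06% (Acute-7d) of all genes were called. Zfp36l1 was at 1650.3 and 2359 normalized counts in Effector, 4814 and 5416 in Acute-2d, 4754 and 4474 in Acute-7d, and 3024 and 3277 in T_Dysf. Effector was lowest, 2.59-fold below Acute-2d (log2 fold change -1.37, SE 0.18, adjusted p = 0.0167 by limma) and 2.34-fold below Acute-7d (-1.22, SE 0.18, adjusted p = 0.0223). Leaving out either Acute-2d library ended the first call (adjusted p = 0.0677 and 0.0696). The second was lost without Acute-7d replicate 1 or 2 (0.106 and 0.0784) or either T_Dysf library (0.0592), and its fold fell under 2 without Effector replicate 1 (-0.97). The RESUB term ended both calls (0.16 and 0.0785), and against Acute-7d it repeats leaving out Acute-7d replicate 2. Zfp36, the relative that decays many inflammatory transcripts, was at 4234 and 5560.2 in T_Dysf and, apart from Acute-2d replicate 2 at 5701, at 982 to 1858 in the other libraries. Klf13, a factor for late Ccl5 transcription in T cells, was at 7968 and 8077 in T_Dysf, 15134 and 13171 in Acute-7d, 12513 and 13567 in Acute-2d, and 8506 and 6803 in Effector. Klf13 in T_Dysf lay below every Acute library, 1.76-fold below Acute-7d and 1.62-fold below Acute-2d in the fit, under the fold threshold and not called. Its part in the Ccl5 values was not tested. Adam10, Adam17, Dpp4 and Zfp36l2 were called in none of the 6 comparisons, and all were at 1248 normalized counts or more in each library.

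Of the other 34 mouse chemokine ligands listed, 15 were found in the table, and 0 were called by limma in each of the 6 comparisons. Of all genes 0.169% to 9.22% were called in these comparisons, so 0 of 15 does not set these ligands apart. With an unadjusted p under 0.05 and a fold of at least 2 the count was 1 in T_Dysf against Effector, in Acute-7d against Acute-2d and in Effector against Acute-7d. In these, 4060, 910 and 3515 of all 24303 genes passed, and in the other comparisons the count of ligands was 0. Their median log2 fold change was -0.08 in T_Dysf against Acute-7d, which is the value of Ccl22, at means of 0.44 and 0.56 normalized counts. At such counts the 1 added before the log draws fold changes toward 0, so this median is not compared with that of the members. Of the 15, 3 averaged at least 50 normalized counts. Ccl25, a thymic and gut chemokine, was at 53.9 to 130 over all libraries and Ccl27a at 35.1 to 86.6. Cxcl10, an interferon-induced ligand of Cxcr3, was at 419 in Effector replicate 2, 18.3 in Effector replicate 1, and 26.8 and 28.5 in T_Dysf. T_Dysf thus overlapped Effector for Cxcl10. Both Acute conditions lay above T_Dysf without overlap, at 62.6 to 176 in Acute-2d and 39.4 to 107 in Acute-7d. T_Dysf was 3.71- and 2.31-fold below them in the fit, and neither difference was called. Of the 15 ligands, 4 were at or under 3 reads in every library.

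A chromosome 11 cluster holds 4 of the members. Ccl5, Ccl9, Ccl3 and Ccl4 sit in this order within 138.906 kb of chromosome 11 (GRCm38), and Ccl1 lies 1.35 Mb before Ccl5 on that chromosome. Ccl5 spans 83525778 to 83530518 and Ccl9 83572919 to 83578636, both on the minus strand. Cxcl16, at 70453983 to 70459984, is 11.7 Mb from Ccl1. Within the cluster the size of the fitted difference varied, from 43.0-fold for Ccl3 to 3.21-fold for Ccl5 in T_Dysf against Acute-7d. Ccl6, a myeloid chemokine of the same cluster named here after its values were seen, was at 27.9 to 68.5 in all libraries and at 53.5 and 43.6 in T_Dysf. Proximity and level were not related by a test.

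Profiles over the 8 libraries were compared by the root mean square (RMS) difference of centred log2 values, among the 12028 genes that averaged 50 normalized counts or more. The gene most like Ccl3 was Ccl4, at an RMS difference of 0.54 where the values of Ccl3 themselves varied by an RMS of 2.46 about their mean. The gene most like Ccl4 was Haspin, a mitotic histone kinase, at 0.36, followed by Ccl3 and by Slc16a10 at 0.58. Haspin lies at 73135485 to 73138294 of chromosome 11 on the minus strand, inside the span of Itgae (73090583 to 73147446, plus strand), the integrin alpha E subunit of CD103. Itgae was at 40456 and 37825 normalized counts in T_Dysf and at 50.2 to 101 in the other libraries, and Haspin was at 5370 and 5421 in T_Dysf and 103 to 784 elsewhere. Without known strand in the counting, reads of the overlapping genes cannot be told apart, and Itgae was named after its values were seen.

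For Ccl5 the 3 most like genes were Tafa3, Itsn1 and Gm2792, at RMS differences of 0.41 to 0.44, and for Xcl1 they were Actr3b, Gclm and Ikzf3, at 0.37 to 0.39. For Cxcl16 they were Hsd11b1, Ap1s2 and Gm33104, at 0.16 to 0.17, where Cxcl16 itself varied by only 0.36. For Ccl1 they were Yap1, Septin8 and Pacsin1, at 0.83 to 0.92, and for Ccl9 Ubash3b, Arhgef25 and Gng11, at 0.82 to 0.86. About their own means Ccl5 varied by an RMS of 1.48, Xcl1 by 0.95, Ccl1 by 1.41 and Ccl9 by 1.48. The member most like Ccl5 was Cxcl16, at 1.31 and rank 1795 of the genes compared, little under the 1.48 of Ccl5 itself. The member most like Ccl1 was Xcl1, at 0.93 and rank 5. These are descriptions over 8 libraries that share conditions.

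**Figure D5:**
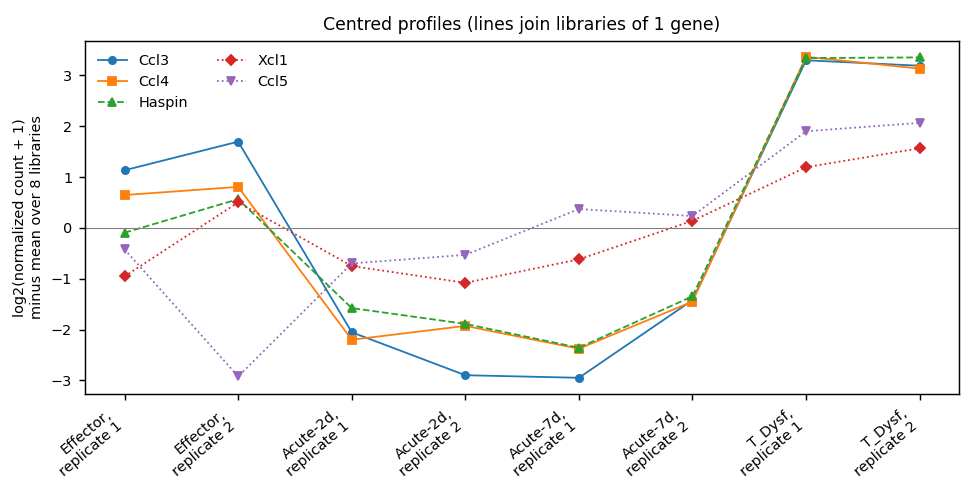
Log2(normalized count + 1) minus its mean over the 8 libraries for Ccl3, Ccl4, Haspin, Xcl1 and Ccl5, in each library. Ccl3 and Ccl4 run together, 3.13 to 3.37 above their means in T_Dysf and at -2.95 to -1.42 in the Acute libraries, while Ccl5 is lowest in Effector replicate 2.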

How the data were processed

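RNA was sequenced from 8 libraries of P14 CD8 T cells, 2 in each of 4 conditions, after polyA selection. The authors aligned reads to mm10 with STAR, quantified them to RefSeq transcripts in Partek Flow and applied DESeq2 median-ratio scaling, with no versions of STAR or DESeq2 given in the sources used here. The deposited values are a signal, namely estimated read counts per gene that the authors divided by a size factor of each library, and are called normalized counts. The methods name a filter on features with a maximum below 50, which the table does not show. Between 53.3% and 75.8% of values under 1000 reads were whole multiples of 1 read (within 0.02), so whole reads were not recovered and no count model was fitted.

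All 24303 genes and 8 libraries entered 1 fit with 4 group means in limma 3.58.1 (R 4.3.3, lmFit and eBayes with trend, two-sided) on log2(normalized count + 1), with 4 residual degrees of freedom. With 2 libraries against 2 an exact permutation test cannot go below p = 0.333, so none was used. A fold change is given where the libraries of the 2 conditions do not overlap. The procedure was tested on simulated data.

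The members and gene lists were chosen with earlier results of these data known. Named were all members, listed receptors, genes of the other 2 lists that average at least 50 normalized counts, and the 3 most alike profiles per member. For 2 such genes the results are left out and are not reported here. Replicate numbers were checked for pairing: correlations of replicate deviations ran from -0.199 to 0.197 over 6 pairs of conditions, so they were not taken as pairs. Alternatives were other pseudocounts (0.1 and 10), filters, scalings (75th percentile, totals, quantile), a fit of the 2 conditions alone, a replicate block, a RESUB term, no trend, an unadjusted p and leaving out each library. Gene models came from GENCODE vM21 and RefSeq, and tables and figures from Python 3.11.15, pandas 2.3.3, numpy 2.4.6 and matplotlib 3.10.9. Protein sequences were not used here.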

Additional observations from a re-analysis of the deposited data

How the results depend on the processing

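The counts of members called (2 of 7 in each comparison except Acute-7d against Acute-2d, where 0 were called) kept within 1.5 times under other pseudocounts, equal totals and equal 75th percentiles. Limiting the test to genes that reach 50 normalized counts on average, or in any library, gave 3 members in T_Dysf against Acute-7d and 4 against Acute-2d and against Effector, as did an unadjusted p under 0.05, by adding Xcl1 in all 3, Ccl5 against Acute-2d and Ccl3 against Effector. In the same order, the filter on the average called 1477, 1697 and 2218 of 12028 genes. The filter on any library called 1712, 1989 and 2532 genes, and the unadjusted p 3184, 3517 and 4060 of 24303. The fit of the 2 conditions alone gave 5 in T_Dysf against Acute-2d, where it called 1300 genes in all. It gave 1 in T_Dysf against Effector and in Effector against Acute-2d, and 0 in Effector against Acute-7d. In T_Dysf against Effector quantile normalization and no trend each left 1, and the RESUB term left 0. That term left 1 in Effector against Acute-2d and turned the log2 fold change of Ccl1 in T_Dysf against Effector to -1.27. Only Acute-7d holds libraries with and without the prefix, so against Acute-7d the term repeats leaving out replicate 1 or 2.

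With the replicate block 1 member, Ccl4, was called in T_Dysf against Effector, and the counts in the other comparisons did not change. In T_Dysf against Acute-7d 891 genes were called, and 1353 without the block. Whether equal replicate numbers share a mouse or a run was not given. Correlations above 0.1 in 2 of 6 pairs of conditions cannot decide it.

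Leaving out 1 library gave 1 to 3 members in T_Dysf against Acute-7d, 1 to 4 against Acute-2d and 0 to 2 against Effector. It gave 0 to 0 in Acute-7d against Acute-2d, 0 to 3 in Effector against Acute-2d and 0 to 2 in Effector against Acute-7d. The lowest counts came without T_Dysf replicate 1 in each T_Dysf comparison. In the Effector comparisons they came without Effector replicate 2, Acute-2d replicate 1 or T_Dysf replicate 2. An arm left with 1 library is assumed to vary like the others. Genes called over the whole table ranged, over these fits, from 422 in T_Dysf against Acute-7d, 656 against Acute-2d and 585 against Effector, where 1353, 1787 and 2241 were called with all libraries. In Acute-7d against Acute-2d the 41 genes called became 1 with either filter, 4 with a pseudocount of 10, 81 with 0.1 and 910 with an unadjusted p. The RESUB term called 541, 386, 350 and 808 in T_Dysf against Acute-7d and Effector and in Effector against Acute-2d and Acute-7d. The fit of the 2 conditions alone called 465, 235 and 155 in T_Dysf against Effector and in Effector against Acute-2d and Acute-7d.

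Of 27 differences of members without overlap of libraries, recomputed 532 times, 470 values kept their direction and side of the threshold, 35 lost the call, 26 gained it and 1 reversed. All 15 differences with overlapping libraries changed sign in at least 1 alternative, so no direction is read from them. Ccl9 and Cxcl16 averaged under 50 normalized counts, and the part of depth in their missing calls was not tested.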
